A study of Mus musculus with 18 samples.

Results

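The 7 genes described here encode B cell and major histocompatibility complex (MHC) class II proteins, and were followed in splenic natural killer (NK) cells of mouse. They are Cd79a, Cd79b, Ms4a1, Cd74, H2-Aa, H2-Ab1 and H2-Eb1, taken by name from the 41388 genes listed in each library, and the question put to their read counts was whether they move together, as transcripts of admixed B cells would. The study sequenced RNA of NK cells sorted from pooled spleens, to find genes that depend on the transcription factor Eomes at each maturation stage. There were 6 groups of 3 libraries. KO cells, called ILC-EomesΔ/Δ by the submitters, came from tamoxifen-treated mice that carried Eomesfl/fl, Rosa26YFPLSL and Ncr1-iCreERT2 KI/WT, and WT cells from mice labelled WT. Both genotypes were on the C57BL/6 strain, aged 8 to 12 weeks. In each genotype, sorted CD27+CD11b- cells are stage II, CD27+CD11b+ cells are stage III and CD27-CD11b+ cells are stage IV. The labels describe 3 days of tamoxifen in 3 separate experiments. They do not say whether WT mice received the drug, which experiment a replicate number belongs to, or how many spleens made a pool, so p-values measure the spread between these pools. Cre is driven from the Ncr1 locus, so deletion is limited to cells that express that NK receptor gene, and the WT label names no Cre or YFP allele.

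CD79A and CD79B form the signalling pair of the B cell receptor, and MS4A1 is the B cell surface protein CD20. CD74 is the invariant chain, which fills the groove of new MHC class II molecules and guides them to endosomes. H2-Aa and H2-Ab1 encode the alpha and beta chains of the mouse class II molecule I-A, and H2-Eb1 encodes the beta chain of I-E. B cells, dendritic cells and macrophages are the textbook carriers of class II in spleen, where the coactivator CIITA acts at paired promoter elements called the X and Y boxes.

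The class II chain genes and Cd74 varied together across libraries, so the promoter stretches of the chain genes are shown, taken from a RefSeq table of the GRCm38.p6 build. All members except Cd74 were looked up in that table. It matched Cd79a, H2-Aa and H2-Eb1, and 150 bases before the start of these H2 genes are printed. Capitals mark ATTGG or its other strand CCAAT, the Y box letters, and the core letters of an X box, which are AG, any 2 bases, AC, any 2 bases and AT. The H2-Aa stretch is chr17:34287824-34287973 on the minus strand and the H2-Eb1 stretch is chr17:34305717-34305866 on the plus strand.
H2-Aa: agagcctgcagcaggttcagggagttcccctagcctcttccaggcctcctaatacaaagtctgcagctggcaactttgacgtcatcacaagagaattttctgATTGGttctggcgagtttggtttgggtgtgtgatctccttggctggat
H2-Eb1: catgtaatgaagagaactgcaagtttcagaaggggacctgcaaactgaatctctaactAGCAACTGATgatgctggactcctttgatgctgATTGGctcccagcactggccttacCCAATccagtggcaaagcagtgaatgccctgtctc
In H2-Eb1 the X box core stood at bases -92 to -83 from the gene start and a Y box at -59 to -55, with a second CCAAT at -35 to -31. H2-Aa had a Y box at -48 to -44. The Y box letters were present in 37.4% of 32851 promoters of the same length (250 bases before to 50 after the start, both strands) and the X box core in 9.89%. An X box core followed within 10 to 30 bases by a Y box on the same strand was found in 59 promoters (0.180%), of which H2-Eb1 was one and H2-Aa and Cd79a were not. Only these exact letters were searched, so an X box with other letters would be missed. The lack of a match in H2-Aa therefore does not show that it has no X box. Both printed stretches hold the run CTGATTGG, which contains the Y box letters and was found in 4.10% of promoters. It was picked after the sequences were seen. Neither the octamer ATGCAAAT (1.74% of promoters) nor the T-box letters GGTGTGA (3.98%) was found in the 3 matched windows. Cd79b, Ms4a1 and H2-Ab1 had no match and are named only, and the promoter of Cd74 was not examined.

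Library totals ran between 18684350 and 28365837 reads assigned to genes. Eomes had 1310 to 3488 reads in KO libraries, against 3710 to 7487 in WT libraries. EdgeR's quasi-likelihood test put Eomes at log2 -1.70 ± 0.15 (SE) in KO against WT stage II (adjusted p = 1.15e-05), -0.69 ± 0.15 in stage III (adjusted p = 0.0143) and -1.28 ± 0.15 in stage IV (adjusted p = 2.74e-04). Reads per exon were not used here, so how much of the remaining KO signal comes from outside the deleted part was not tested. Several libraries stood apart. In KO stage III, replicates 1 and 3 detected 14824 and 16536 genes, and replicate 2 detected 21454. The 10 genes with most reads made up 17.0% and 20.6% of the reads in replicates 1 and 3 and 10.6% in replicate 2. Most genes were detected in replicate 3 of KO stage IV (27912) and replicate 1 of WT stage II (29859). Xist, expressed from the inactive X chromosome, had 5.66 to 45.2 CPM (read counts scaled to equal library totals) in all KO libraries and in WT replicate 1 of each stage, and at most 0.636 CPM in WT replicates 2 and 3. The sex of the pooled mice is not given in the labels, and KO against WT is in part confounded with this split, so KO against WT values are also given with Xist detection (below 1 CPM or not) as a covariate, chosen after seeing the data, which sets KO against WT replicate 1. NK cell markers summed to between 15214 and 45474 CPM in the 18 libraries.

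Per length (RPKM, which is CPM per kilobase of transcript), Cd74 was the most abundant member in each of the 6 groups. In stage II its mean was 501 ± 35.9 RPKM in KO and 353 ± 60.5 RPKM in WT (SD, n = 3 each). The class II chains came next, at 28.8 to 34.6 RPKM in KO stage II and 24.3 to 28.7 RPKM in WT stage II. Cd79b stood at 18.6 ± 2.65 RPKM in KO stage II and 8.35 ± 1.33 RPKM in WT stage II. Cd79a, the obligate partner of CD79B in the B cell receptor, and Ms4a1 had group means of at most 0.641 and 0.110 RPKM in all 6 groups. All 7 members passed the filter on low counts that left 14156 genes tested.

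**Figure D1:**
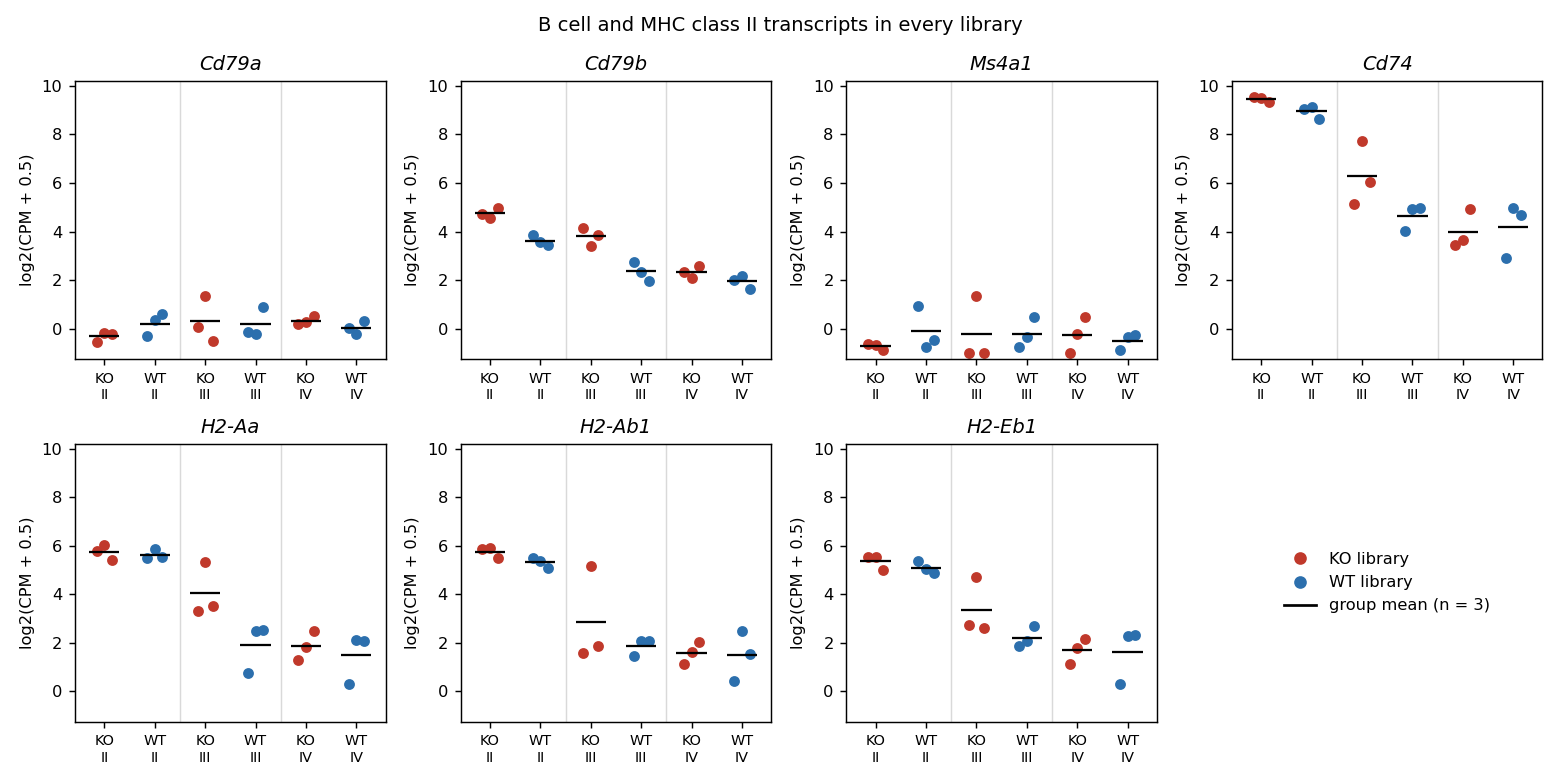
Each point is a library and each bar a mean of 3 libraries, for each of the 7 genes; the x axis gives KO and WT by stage and the y axis log2(CPM + 0.5). Cd74 and the H2 genes drop after stage II, Cd79b steps down from stage II to IV and is higher in KO in stages II and III, and Cd79a and Ms4a1 lie near the bottom of every panel.

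Cd79a had few reads in every library. KO stage II libraries had 5, 9 and 8 reads and WT stage II libraries 6, 16 and 22. KO stage III libraries had 11, 46 and 5 reads, against 9, 10 and 37 in WT stage III. KO stage IV libraries had 12, 18 and 23 reads and WT stage IV libraries 12, 9 and 15. The groups overlapped at all 3 stages, and KO stage III replicate 2 was the highest of the 18 libraries. EdgeR called Cd79a changed in 0 of the 12 contrasts of genotype and stage, with 1 contrast (KO stage III against II) at an unadjusted p under 0.05. DESeq2 called it in 0 as well, and the smallest adjusted p was 0.150 by edgeR and 0.111 by DESeq2.

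Ms4a1 was at or near 0. KO stage II libraries had 4, 3 and 1 reads, against 27, 2 and 5 in WT. KO stage III libraries had 0, 46 and 0 reads, against 2, 8 and 24 in WT, and KO stage IV libraries had 0, 9 and 22, against 1, 7 and 7 in WT. A count of 0 allows up to 3 reads, counting error only. The highest values were in KO stage III replicate 2, WT stage II replicate 1, KO stage IV replicate 3 and WT stage III replicate 3 (2.05, 1.39, 0.900 and 0.889 CPM). EdgeR called Ms4a1 in 0 of 12 contrasts, with 0 at an unadjusted p under 0.05 and a smallest adjusted p of 0.289, and DESeq2 in 0, with a smallest adjusted p of 0.240.

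Cd79b behaved differently from its partner. In stage II it had 26.1, 23.2 and 30.7 CPM in KO libraries, against 14.1, 11.4 and 10.4 CPM in WT. In stage III it had 17.0, 10.1 and 13.9 CPM in KO, against 6.27, 4.58 and 3.41 CPM in WT. In stage IV it had 4.50, 3.78 and 5.40 CPM in KO, against 3.56, 4.06 and 2.59 CPM in WT. Every KO library exceeded every WT library in stages II and III, and the genotypes overlapped in stage IV. The replicate with the most Cd79a and Ms4a1 reads, KO stage III replicate 2, had the fewest Cd79b reads of its group.

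Cd79b rose 2.24-fold in KO against WT stage II (log2 1.16 ± 0.25 SE, adjusted p = 0.0229, edgeR), the 1 member of 7 called, where 0.466% of all tested genes were called higher. It rose 3.31-fold in KO stage III (log2 1.73 ± 0.26, adjusted p = 0.00123). In stage IV its log2 difference was 0.39 ± 0.26 (adjusted p = 1.0). The stage II call ended without KO replicate 1 or 3 or WT replicate 2 or 3 (log2 1.07 to 1.20, adjusted p = 0.0665 to 0.138), while the stage III call held in all 18 fits with 1 library left out (log2 1.54 to 1.97). With Xist detection as a covariate, the stage II value was 0.98 (adjusted p = 0.152) and the stage III value 1.56 (adjusted p = 0.00936). Without both KO stage III replicates 1 and 3, which leaves replicate 2 alone, the stage III value was 1.07 (adjusted p = 0.100), and with only the stage III libraries in the fit it was 1.72 (adjusted p = 0.189).

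**Figure D2:**
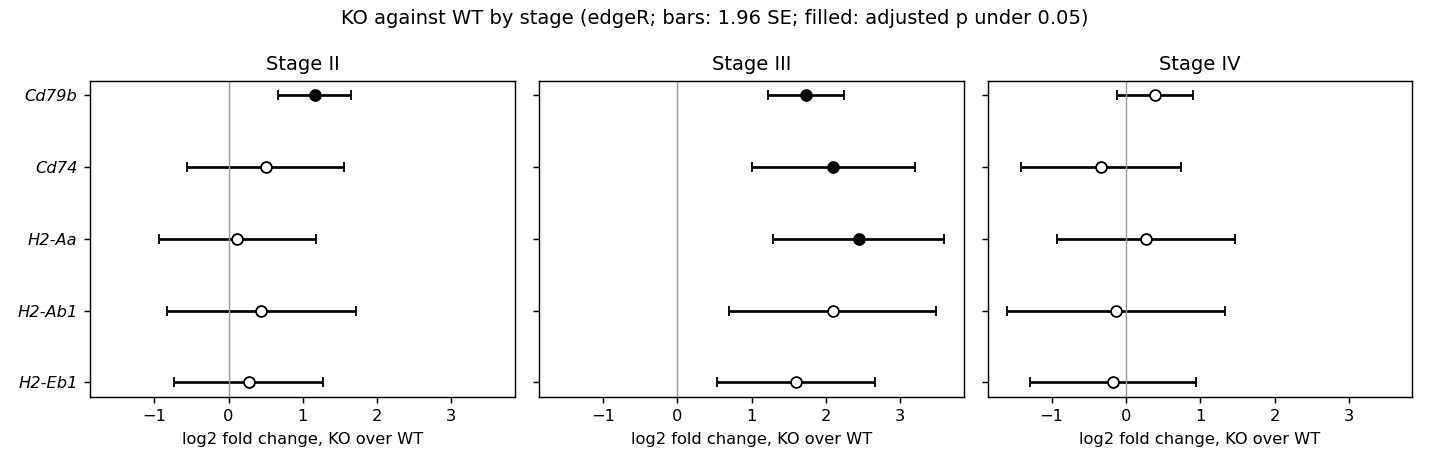
Log2 fold change of KO over WT (x axis) for the 5 members with enough reads, by stage; bars are 95% intervals and filled points have an adjusted p under 0.05 by edgeR. Cd79b is filled in stages II and III, Cd74 and H2-Aa in stage III, and the stage IV points lie between -0.33 and 0.39.

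Cd74 had 743, 728 and 649 CPM in KO stage II libraries, against 536, 558 and 401 CPM in WT. In stage III it had 34.4, 211 and 66.0 CPM in KO, against 15.5, 29.8 and 31.2 CPM in WT. In stage IV it had 10.3, 12.0 and 29.5 CPM in KO, against 7.03, 30.6 and 25.5 CPM in WT. KO libraries lay above all WT libraries in stages II and III and overlapped them in stage IV. In stage III the KO replicates differed from each other more widely than the WT replicates.

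H2-Aa, the I-A alpha chain, had 55.2, 65.0 and 41.9 CPM in KO stage II, against 44.9, 57.0 and 45.9 CPM in WT. In stage III it had 9.45, 40.1 and 10.9 CPM in KO, against 1.20, 5.11 and 5.29 CPM in WT, and in stage IV 1.98, 3.06 and 5.07 CPM in KO, against 0.720, 3.86 and 3.67 CPM in WT. The stage III groups did not overlap. H2-Ab1, the I-A beta chain, had 57.3, 60.2 and 44.8 CPM in KO stage II, against 44.6, 41.1 and 33.8 CPM in WT, a narrow separation. Its KO stage III values were 2.51, 34.9 and 3.13 CPM, against 2.21, 3.77 and 3.67 CPM in WT. Only KO replicate 2 lay outside the WT range upward. H2-Eb1, the I-E beta chain, had 46.3, 45.3 and 31.1 CPM in KO stage II, against 40.8, 32.2 and 29.0 CPM in WT, and 6.08, 25.5 and 5.58 CPM in KO stage III, against 3.14, 3.67 and 6.00 CPM in WT. In stage IV H2-Ab1 and H2-Eb1 ranged over 1.71 to 4.01 CPM in KO and 0.720 to 5.03 CPM in WT. KO and WT overlapped for both genes there.

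In KO against WT stage III, 3 of the 7 members rose, where 5.16% of all tested genes were called higher. These were Cd79b, Cd74 at 4.28-fold (log2 2.10 ± 0.56, adjusted p = 0.0368) and H2-Aa at 5.41-fold (log2 2.44 ± 0.59, adjusted p = 0.0248). H2-Ab1 (log2 2.09 ± 0.71, adjusted p = 0.0730) and H2-Eb1 (log2 1.60 ± 0.54, adjusted p = 0.0713) missed the threshold by edgeR, and DESeq2 called all 5. The median over the 7 members was log2 1.73, beside 0.02 over all tested genes. In bulk RNA, more cells of a type and more RNA per cell cannot be told apart. Non-overlap with KO above WT held for Cd79b, Cd74 and H2-Aa in stage III (6.27% of tested genes), for Cd79b, Cd74 and H2-Ab1 in stage II (10.5%) and for 0 members in stage IV (7.40%).

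The stage III differences of the class II genes rested in part on KO replicate 2. Without it the log2 values were 1.26 for Cd74 (adjusted p = 0.0735), 1.63 for H2-Aa (adjusted p = 0.0321), 0.07 for H2-Ab1 (adjusted p = 0.938) and 0.70 for H2-Eb1 (adjusted p = 0.307), while Cd79b stood at 1.97 (adjusted p = 3.46e-05). Cd74 lost its call in 13 of 18 fits with 1 library left out (log2 1.26 to 2.52 over the 18), namely without any one of KO stage II replicates 1 to 3, KO stage III replicates 2 and 3, KO stage IV replicate 2, WT stage II replicates 2 and 3, WT stage III replicates 1 to 3 and WT stage IV replicates 2 and 3 (adjusted p = 0.0518 to 0.142). H2-Aa lost its call without WT stage III replicate 1, 2 or 3 (log2 2.0, 2.68 and 2.71, adjusted p = 0.0995, 0.0893 and 0.0812), and H2-Ab1 and H2-Eb1 gained one without KO stage III replicate 1 (log2 2.58, adjusted p = 0.0453) and WT stage IV replicate 1 (log2 1.59, adjusted p = 0.0491). These fits differ in how many of all genes they call: 30.6% without KO stage III replicate 2, beside 7.90% with all libraries. With Xist detection as a covariate, Cd74 was at log2 2.79 (adjusted p = 0.0266) and H2-Aa at 3.54 (adjusted p = 0.00560), with 3.28% of all genes called. With only the stage III libraries in the fit, edgeR called 0 of the 7 members.

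In KO against WT stages II and IV the class II genes did not pass the test. In stage II Cd74 was at log2 0.50 ± 0.54 (adjusted p = 0.946) and the 3 chain genes at 0.12 to 0.44 (adjusted p = 0.978 to 0.988). In stage IV edgeR called 0 of 7 members (0 at an unadjusted p under 0.05, 0 by DESeq2), with log2 values of Cd74 and the H2 genes from -0.33 ± 0.55 for Cd74 to 0.27 ± 0.61 for H2-Aa, where 0.509% of tested genes were called in either direction. The change of the genotype difference between stages was tested directly. It passed for 0 members in each of 3 interaction contrasts by edgeR (1, 1 and 5 at an unadjusted p under 0.05, 0 by DESeq2), where 0.0494%, 0.212% and 0.0283% of all tested genes passed for stage III minus II, IV minus II and IV minus III. The lowest unadjusted p was that of Cd79b for stage IV minus III (log2 -1.34 ± 0.37, adjusted p = 0.429), which passed without KO stage III replicate 2 (log2 -1.59, adjusted p = 0.00427), a fit in which 2440 of 16318 genes passed that contrast.

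Levels of 5 members fell between stage II and stage IV in both genotypes. In KO cells the drop from stage II to III passed the test for 1 member. In KO stage III against II, Cd74 was the 1 member called, 6.08-fold lower (log2 -2.60 ± 0.57, adjusted p = 0.00782), where 4.83% of tested genes were called lower. With the replicate number as a block, 4 were called, adding H2-Aa (log2 -1.47, adjusted p = 0.0354), H2-Ab1 (-2.37, adjusted p = 0.0184) and H2-Eb1 (-1.73, adjusted p = 0.0332). The same 4 passed without KO stage III replicate 2, with H2-Ab1 at log2 -3.89 (adjusted p = 6.60e-05), a fit that called 29.6% of all genes in either direction. Without KO stage III replicates 1 and 3 Cd74 was at -1.70 (adjusted p = 0.281). H2-Eb1 also passed without WT stage IV replicate 1 (-1.56, adjusted p = 0.0315).

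In KO stage IV against III the 5 members fell by 3.49-fold (Cd79b, adjusted p = 2.23e-04) to 6.50-fold (Cd74, adjusted p = 0.00478), where 11.4% of tested genes were called lower. H2-Ab1 was at log2 -0.42 (adjusted p = 0.511) without KO stage III replicate 2, and lost its call without KO stage IV replicate 1, 2 or 3 as well (log2 -2.21, -2.42 and -2.68, adjusted p = 0.0716 to 0.108). H2-Eb1 lost it without KO stage III replicate 2 or KO stage IV replicate 1 or 2 (log2 -1.30, -1.94 and -2.23, adjusted p = 0.0526 to 0.0568). Over the whole span, KO stage IV against II, Cd74 was 39.5-fold lower (log2 -5.30 ± 0.65, adjusted p = 1.50e-05), H2-Ab1 19.8-fold, H2-Aa 15.3-fold, H2-Eb1 13.5-fold and Cd79b 5.62-fold, among 8.76% of tested genes called lower. These 5 calls, and the corresponding 5 in WT, held in all 18 fits with 1 library left out.

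In WT stage III against II, 5 of 7 members fell, where 1.98% of tested genes were called lower. Cd74 was 18.4-fold lower (log2 -4.20 ± 0.61, adjusted p = 5.37e-04), H2-Aa 11.9-fold (adjusted p = 0.00223), H2-Ab1 11.6-fold (adjusted p = 0.0109), H2-Eb1 7.45-fold (adjusted p = 0.00619) and Cd79b 2.39-fold (adjusted p = 0.00993, all edgeR). The call ended for Cd79b without WT stage III replicate 2 or 3 (log2 -1.22 and -1.04, adjusted p = 0.0678 and 0.101), for H2-Ab1 without WT stage III replicate 1, 2 or 3 (-3.28, -3.65 and -3.61, adjusted p = 0.0647 to 0.0800) and for H2-Eb1 without WT stage III replicate 2 (-2.77, adjusted p = 0.0541). Between WT stages IV and III edgeR called 0 members (0 at an unadjusted p under 0.05, 0 by DESeq2, 3.17% of tested genes called), with log2 values of -0.46 for Cd79b, -0.27 for Cd74, -0.51 for H2-Aa, -0.20 for H2-Ab1 and -0.41 for H2-Eb1. WT stage IV against II had these 5 lower as well, among 9.82% of tested genes, with Cd74 22.1-fold lower (log2 -4.47 ± 0.62, adjusted p = 8.73e-05) and Cd79b 3.29-fold lower (log2 -1.72 ± 0.26, adjusted p = 2.36e-04).

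To see whether the members kept the steady proportion that 1 admixed cell type would bring, the ratios of reads within each library were examined. Cd79b reads per Cd79a read were 136, 61.7 and 84.3 in KO stage II libraries, against 45.5, 14.7 and 10.3 in WT. They were 30.8, 4.96 and 69.4 in KO stage III, against 15.1, 13.0 and 2.49 in WT, and 3.53 to 11.1 in the 6 stage IV libraries. The extremes were a Cd79b share of 99.3% of the pair's reads in KO stage II replicate 1 (95% exact Clopper-Pearson interval 98.3 to 99.8%) and 71.3% in WT stage III replicate 3 (62.7 to 78.9%), intervals that cover counting error only. The ratio thus spanned 54.7-fold over 18 libraries. Cd74 reads per Cd79a read spanned 280-fold, between 13.8 and 3877, and H2-Aa per Cd79a read 203-fold.

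Within the class II group the ratios were much tighter. The spans against Cd79a rest on 5 to 46 Cd79a reads per library, and they include the stage differences. Cd74 reads per H2-Aa read had a median of 7.44 and lay between 3.64 and 15.5, a 4.25-fold span. H2-Eb1 reads per H2-Aa read spanned 5.12-fold and H2-Ab1 per H2-Aa read 6.94-fold. The highest Cd74 to H2-Aa ratio in KO was in stage II (11.2 to 15.5), and KO stages III and IV had 3.64 to 6.04. WT stage II had 8.73 to 11.9, and WT stages III and IV had 5.83 to 13.0.

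**Figure D3:**
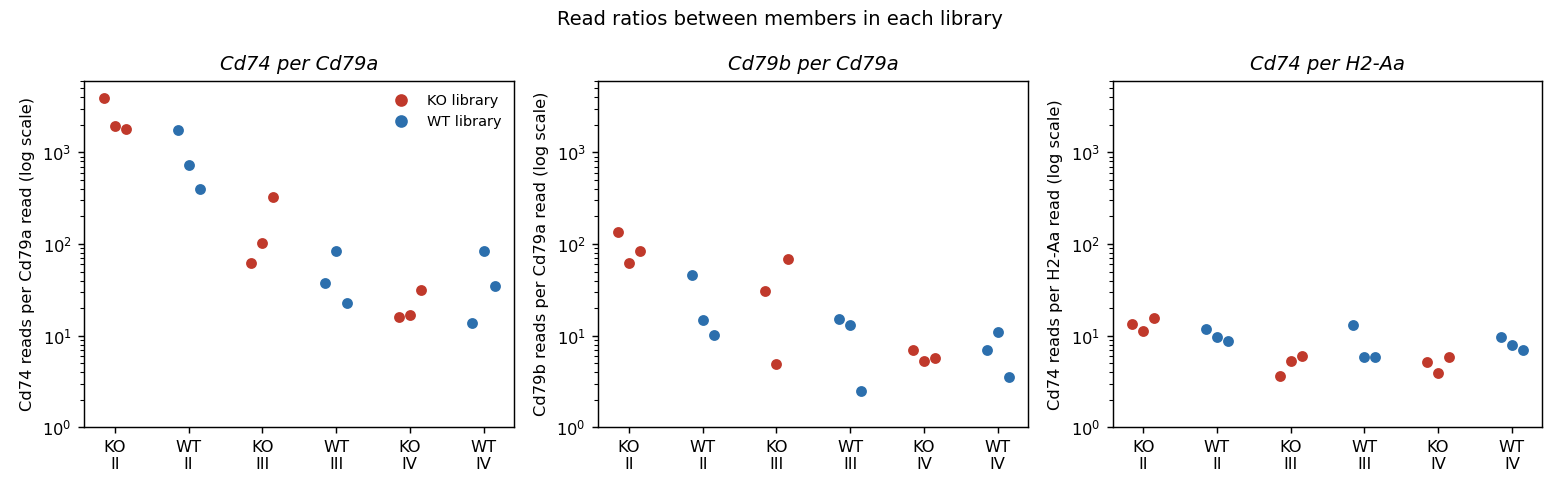
Reads of a gene per read of its partner in each library, on log axes of the same range, with KO (red) and WT (blue) by stage on the x axis. Cd74 per Cd79a spans 280-fold and Cd79b per Cd79a 54.7-fold, while Cd74 per H2-Aa spans 4.25-fold.

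Co-variation was then measured within groups, as deviations of log2(CPM + 0.5) from each group's mean over 18 libraries, for 21 pairs of members. Cd74, H2-Aa, H2-Ab1 and H2-Eb1 varied together in all 6 of their pairs, with Pearson r of 0.85 to 0.93 and Spearman rho of 0.87 to 0.93 (two-sided permutation test within groups, adjusted p at most 0.00360 for r and 0.00333 for rho over 21 pairs). These r values were 0.80 to 0.88 without the 2 libraries farthest from the median of the first gene, and 0.83 to 0.95 with any 1 library left out. Ms4a1 varied with the same 4 genes, with r of 0.76 for Cd74, 0.72 for H2-Aa, 0.80 for H2-Ab1 and 0.82 for H2-Eb1 (permutation p = 0.00377, 0.00663, 0.00161 and 2.10e-04, adjusted p = 0.00880, 0.0139, 0.00423 and 0.00147; rho 0.75 to 0.89). Those 4 r values were 0.71 to 0.77 without the 2 farthest libraries, and at least 0.54 with any 1 left out. Ms4a1 has few reads, so its deviations carry counting error.

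Cd79a and Cd79b did not rise and fall together. Their r was -0.66 (permutation p = 0.0397, adjusted p = 0.0758) and rho -0.67 (p = 0.0233, adjusted p = 0.0444), with r of -0.66 without the 2 farthest libraries and -0.75 to -0.53 with any 1 left out. Cd79b had a negative r with each of the other 6 members, between -0.66 and -0.36, none of which passed the adjustment for r (adjusted p = 0.0758 to 0.287). Cd79a had r of 0.46 to 0.58 with Ms4a1, Cd74 and the H2 genes (adjusted p = 0.151 to 0.284). These fell to 0.08 to 0.34 without the 2 farthest libraries, so the Cd79a relations rest on those libraries. Libraries of the same replicate number may share a pool of spleens, so the 18 points are not fully independent.

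**Figure D4:**
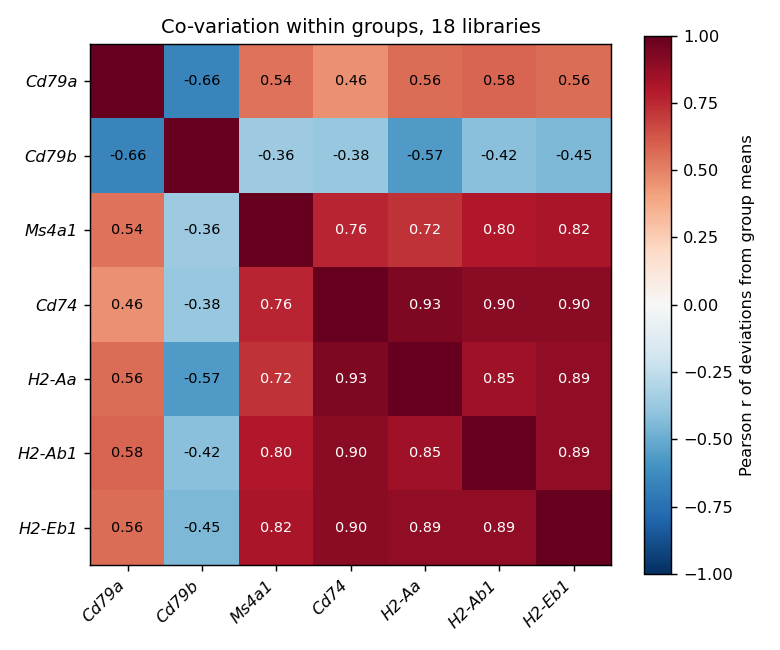
Pearson r between members of deviations from group means over 18 libraries, with red for positive and blue for negative values. Cd74 and the H2 genes form a block at 0.85 to 0.93, Ms4a1 joins it at 0.72 to 0.82, and the Cd79b row is negative throughout.

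Markers of other cells were set beside these values. Igkc, the kappa light chain constant region, had 83, 908 and 92 reads in KO stage III, against 41, 105 and 279 in WT, and KO replicate 2 was the highest. Lyz2, a macrophage and granulocyte gene, had 27, 1418 and 179 reads in KO stage III, against 17, 75 and 66 in WT. Over the 15 dendritic cell and macrophage markers the sum was 29.9, 126 and 67.1 CPM in KO stage III, against 40.6, 34.7 and 33.6 CPM in WT, with 5, 15 and 13 of 15 markers detected in KO and 12, 13 and 11 in WT. In stage II the same sum was 25.3, 47.6 and 38.5 CPM in KO, against 92.4, 69.9 and 76.7 CPM in WT, where KO libraries had the higher Cd74, and Batf3, a dendritic cell factor gene, made up 41.3% to 52.5% of the WT sum. Of the 13 markers tested, edgeR called Batf3 lower in KO stage II (log2 -3.31 ± 0.61, adjusted p = 0.00654), and 0 in stages III and IV (2 and 0 had an unadjusted p below 0.05, and DESeq2 called 1 and 0). The list's median in stage III was log2 2.17, above the members' 1.73. Several of its genes were near 0, with median counts over all libraries of 2.5 for C1qa, 2.5 for Siglech and 4 for Flt3, beside 420.5 for Cd68. The members' median likewise includes Cd79a and Ms4a1, which had few reads, so the 2 medians are rough. The 7 genes listed as markers of ILC1, innate lymphoid cells related to NK cells, were higher in KO as well. They were chosen with earlier results of these data known. Over all tested genes 0.466%, 5.16% and 0.240% were called higher in KO stages II, III and IV. Of the 7 ILC1 genes, 5 rose in KO stage II, 7 in stage III and 2 in stage IV, with a median of log2 2.31 in stage III. Their sums over stages II, III and IV averaged 1661, 197 and 54.4 CPM in KO and 804, 52.1 and 23.6 CPM in WT, beside 883, 165 and 31.9 CPM in KO and 635, 42.8 and 33.9 CPM in WT for the 7 members. Sums of the 12 T cell genes also declined over the stages, at 1542, 919 and 382 CPM in KO and 1615, 1042 and 525 CPM in WT. The highest contributors were Trbc1, Cd28 and Trbc2, with means of 395, 347 and 163 CPM over all libraries. Cd3g and Cd3d averaged 43.5 and 36.4 CPM. Cd4, Cd8a, Cd8b1, Cd5 and Cd6 had median counts of 0 to 3.5 and at most 33 reads in a library, so the sums do not measure T cells. Of the 10 tested, 1 was lower in KO stage II (Cd3d), where 0.996% of all tested genes were called lower. In KO stage III 1 was higher (Cd3g), where 5.16% of all tested genes were called higher. The part of these cells in the class II differences was not tested.

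Of 16 B cell identity genes, 11 passed the filter, and edgeR called 0 of them in KO against WT at any stage (1, 2 and 1 at an unadjusted p under 0.05 in stages II, III and IV, 0 by DESeq2, which gave adjusted p-values for 11, 4 and 4 of them). Over all tested genes edgeR called 1.46%, 7.90% and 0.509% in either direction in these stages, so 0 of 11 is near those shares. Without KO stage III replicate 2, 1 of 12 was higher and 2 lower in stage III, where that fit called 30.6% of all genes. The list's medians over tested genes were log2 -1.69, 0.83 and 1.10 in stages II, III and IV, beside -0.01, 0.02 and 0.02 over all tested genes. Pax5, the defining B lineage factor, was at 0 in 13 of 18 libraries and never above 4 reads, the lowest of the 16 by mean RPKM. Other genes of the list had more reads. Ebf1 was at 0 in 2 libraries and reached 60 reads, Pou2af1 was at 0 in 5 and reached 52, and Cr2 was at 0 in 1 and reached 33. The summed list was 63.9 ± 4.94 CPM in KO stage II and 85.5 ± 4.86 CPM in WT, and its highest contributors per length were Tnfrsf13c (5.69 RPKM over all libraries), Cd22 (3.83 RPKM) and Bank1 (1.14 RPKM). Tnfrsf13c encodes the BAFF receptor, Cd22 an inhibitory sialic acid receptor, and Bank1 a B cell adaptor. Cd22 had 51.7, 39.7 and 38.0 CPM in KO stage II, against 62.3, 52.5 and 62.0 CPM in WT. It fell with maturation like the class II genes, by log2 -2.70 ± 0.42 in KO stage III against II (adjusted p = 4.96e-04) and -3.87 ± 0.44 in WT (adjusted p = 4.37e-05).

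Of 9 immunoglobulin and plasma cell genes, 6 had values and 4 were tested, and edgeR called 0 in KO against WT (0, 1 and 1 at an unadjusted p under 0.05 in stages II, III and IV, and 0, 1 and 0 by DESeq2). With 1.46%, 7.90% and 0.509% of all tested genes called in either direction by edgeR, 0 of 4 is near those shares. Without KO stage III replicate 2, 1 of 4 was higher in stage III, where 30.6% of all genes were called. Ighd, Iglc1 and Iglc3 were not analysed here. Ighm, the heavy chain constant region of IgM, averaged 473 RPKM over all libraries, the highest on this list. It had 1213, 1083 and 1319 CPM in KO stage II, against 1018, 961 and 943 CPM in WT, and 198, 145 and 178 CPM in KO stage IV, against 224, 269 and 316 CPM in WT. The KO against WT values were log2 0.30 ± 0.19 in stage II, 0.53 ± 0.19 in stage III (adjusted p = 0.0846) and -0.67 ± 0.19 in stage IV (adjusted p = 0.252). Ighm fell by 2.74 on the log2 scale in KO stage IV against II (SE 0.20, adjusted p = 4.82e-08) and by 1.77 in WT (SE 0.20, adjusted p = 8.05e-06). Igkc and Jchain, the light chain and the joining chain of secreted antibody, averaged 21.2 and 1.19 RPKM.

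Of 12 further MHC class II pathway genes, all were tested and 3 rose in KO against WT stage III, where 5.16% of all tested genes were called higher. In stages II and IV 0 were called (1 and 2 at an unadjusted p under 0.05, 0 by DESeq2), where 1.46% and 0.509% of all tested genes were called in either direction. H2-DMa, a chain of the peptide exchange factor that acts on class II, had 154, 95.7 and 143 CPM in KO stage III, against 86.2, 69.6 and 63.9 CPM in WT (log2 1.04 ± 0.20, adjusted p = 0.00721). H2-Oa and H2-Ob, the chains of its inhibitor, were at log2 1.48 ± 0.32 (adjusted p = 0.0155) and 0.90 ± 0.16 (adjusted p = 0.00402). H2-Oa had 40.2, 30.4 and 38.5 CPM in KO stage III, against 19.8, 15.2 and 9.77 CPM in WT, so here KO replicate 2 was the lowest of its group. Without KO stage III replicate 2, 4 of the 12 were higher and 0 lower, a share near the 30.6% of all genes called in that fit. Without KO stage III replicates 1 and 3, 0 were called. The list's median was log2 0.46, beside 0.02 over all tested genes.

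Ciita, the class II coactivator, had 131, 118 and 86 reads in KO stage II, against 54, 23 and 34 in WT. These groups did not overlap, which with KO above WT held for 10.5% of all tested genes in stage II. Ciita was at log2 1.36 ± 0.87 and did not pass edgeR's test (adjusted p = 0.783). It had 0, 32 and 1 reads in KO stage III, against 12, 3 and 5 in WT. KO replicate 2 again stood above the rest. Ctss, the protease that trims the invariant chain, averaged 54.1 RPKM over all libraries, beside 56.2 RPKM for H2-DMa and 17.0 RPKM for H2-Oa, and was not called between genotypes (log2 -0.41 ± 0.15 in stage II, adjusted p = 0.351). With maturation, 6 of 12 pathway genes fell in KO stage IV against II and 5 in WT, where 8.76% and 9.82% of tested genes were called lower. H2-DMa, H2-DMb1, H2-Oa, H2-Ob and Ctss fell in both genotypes, with H2-Oa at log2 -3.79 ± 0.37 in KO (adjusted p = 1.02e-06) and -4.63 ± 0.38 in WT (adjusted p = 2.76e-07).

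Among 8 B cell receptor signalling genes, several of which NK cells also use, Syk was lower in KO stages II and III (log2 -0.55 ± 0.11 and -0.63 ± 0.11, adjusted p = 0.0166 and 0.00493). Cd72, an inhibitory receptor gene, was lower in KO stages III and IV (log2 -0.77 ± 0.16 and -0.92 ± 0.16, adjusted p = 0.0141 and 0.0143). Ptpn6, the phosphatase SHP-1, was higher in KO stages III and IV (log2 0.78 ± 0.10 and 0.91 ± 0.10, adjusted p = 3.22e-04 and 1.92e-04). The counts were 0 higher and 1 lower in stage II, 1 higher and 2 lower in stage III and 1 higher and 1 lower in stage IV. Over all tested genes 0.996% were lower in stage II, 5.16% higher and 2.75% lower in stage III, and 0.240% higher and 0.268% lower in stage IV.

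Apart from the 7 members themselves, the genes whose levels ran most like each member across the 18 libraries were found by Pearson r of log2(CPM + 0.5), a description that includes the stage differences. For Cd79b these were Tmem154 (r = 0.965), Rhod (0.963) and Qpct (0.959). The r of Cd79b was -0.356 with Cd79a and -0.178 with Ms4a1, but 0.753 to 0.822 with Cd74 and the H2 genes. For Cd74 they were Lta (0.960), Krt83 (0.953) and Srsf12 (0.952). H2-Aa ran with Lta (0.941), Cd63 (0.940) and Adgrg5 (0.929), H2-Eb1 with Krt83 (0.946), Cd63 (0.943) and Lta (0.943), and H2-Ab1 with Nfam1 (0.966), Chst15 (0.961) and Cd63 (0.949). Cd74 and the H2 genes were closer to each other than to any of these (r of 0.954 to 0.984), except that H2-Ab1 was closer to Nfam1 and Chst15 than to H2-Aa (0.954). For Ms4a1 they were Sirpa (0.860), Ifngr2 (0.856) and Blnk (0.847), and for Cd79a Gm26515 (0.746), Pde4d (0.717) and Dbf4 (0.704), the lowest of the 7.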

How the data were processed

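RNA of 18 libraries was sequenced. Per the submitters' processing notes, STAR 2.0.4 aligned reads and featureCounts 1.4.5 (Subread) counted them; the build and the strand setting were not given in the sources used here. Each deposited file lists raw gene counts, and, per the file headers, CPM and RPKM made by the authors from them. Identifiers were named with GENCODE release M21 (GRCm38; 40340 of 41388 matched, 40244 overlapping the listed position). Antisense genes overlap Ms4a1 (at most 4 reads in a library) and H2-Eb1 (at most 14), and a microRNA gene overlaps Cd74 (at most 22).

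Counts were fitted with edgeR 4.0.16 (R 4.3.3): TMM scaling, filterByExpr (minimum count 10), quasi-likelihood test, 6 group means over all 18 libraries, Benjamini-Hochberg adjustment over 14156 genes, called at an adjusted p under 0.05. It was tested on simulated data. Each SE of a log2 value was worked back from the test, as the absolute log2 value divided by the square root of its F value. Intervals of 1.96 SE use a normal multiplier, so they are approximate and may be too narrow. Alternatives used DESeq2 1.42.0 and limma 3.58.1 (voom). Correlations used 100000 permutations. The members and gene lists were chosen with earlier results of these data known. Named genes were the 7 members, Eomes, the 3 genes most like each member, and of the B cell identity, immunoglobulin and class II pathway lists those called between genotypes plus the 3 most abundant by RPKM; other genes named (among them Pax5, Ciita, Lyz2, Cd22 values by stage and the signalling genes) were chosen after their values were seen.

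Same-numbered libraries deviated together, with every correlation above 0.1, between KO stages II and III (0.15 to 0.31) and between WT stages (0.13 to 0.49). They did not between KO and WT of the same stage (lowest -0.10), although KO stage II and WT stage IV, which are not compared, had 0.13 to 0.29, nor between KO stage IV and the other KO stages (lowest -0.06). No 2 libraries agreed within counting noise.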

Additional observations from a re-analysis of the deposited data

How the results depend on the processing

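Of the counts of called members, those for KO against WT stage IV, for WT stage IV against both earlier stages and for KO stage IV against II stayed within 1.5 times under every alternative tried. With 1 library left out in turn, the count ranged over 0 to 1 for KO against WT stage II, 1 to 4 for stage III, 0 to 1 for the stage IV minus III difference, 2 to 5 for WT stage III against II, 1 to 4 for KO stage III against II and 3 to 5 for KO stage IV against III. Without a filter on low counts it was 5 for KO against WT stage III, 4, 1 and 5 for the differences III minus II, IV minus II and IV minus III, and 4 for KO stage III against II. DESeq2 called 5 for KO against WT stage III and 2 for KO stage III against II. Voom with quality weights gave 1, 2 and 2 for KO against WT stage III, KO stage III against II and KO stage IV against III, and fits on only the contrast's libraries 0, 0 and 1, with few residual degrees of freedom. Another alternative was chosen after seeing the data. It left out replicate 1 of WT stage II, replicate 2 of KO stage III and replicate 3 of KO stage IV. In these 3 libraries all 16 B cell identity genes and all 15 dendritic cell and macrophage markers had a read. Their sums of the latter markers were 92.4, 126 and 40.4 CPM. WT stage II replicate 3, at 76.7 CPM, was kept, so the choice was not a ranking by these sums. Without these 3 libraries the count was 1 for the stage IV minus III difference. It was 4 for KO stage III against II and 3 for KO stage IV against III. The replicate block gave 4 for KO stage III against II, and H2-Ab1 at log2 0.07 for KO against WT stage IV. It changed no other count of called members by over 1.5 times.

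Values that changed sign, none of them called, ranged with 1 library left out over log2 -0.02 to 0.31 (H2-Aa, KO against WT stage II), and in stage IV over -0.94 to 0.04 (Cd74), -0.22 to 0.61 (H2-Aa), -0.59 to 0.66 (H2-Ab1) and -0.67 to 0.15 (H2-Eb1). The same ranges were -0.39 to 2.08 (H2-Ab1, III minus II), -0.35 to 0.48 (H2-Aa, IV minus II), -1.05 to 0.20 (H2-Ab1, IV minus II), and, for WT stage IV against III, -0.67 to 0.15 (Cd74), -1.0 to 0.24 (H2-Ab1) and -0.75 to 0.07 (H2-Eb1). Without the 3 libraries, H2-Aa was at -0.12 in stage IV and -0.13 for IV minus II, and H2-Ab1 at -0.41 for III minus II. Without KO stage III replicates 1 and 3, Cd79b was at -0.09 for III minus II. With Xist detection as a covariate, Cd74, H2-Ab1 and H2-Eb1 in KO against WT stage IV were at 0.45, 0.47 and 0.43, and the count of called members was 0 in stage II and as reported elsewhere. The cause was not tested. Over all tested genes, KO against WT stage III gave 1119 calls as reported, 1941 with no filter, 2316 by DESeq2, 1770 with the block, 730 by voom, 10 with only the contrast's libraries, 371, 4993 and 352 without KO stage III replicate 1, 2 or 3, 235, 168 and 144 without WT stage III replicate 1, 2 or 3, 162 without KO stage III replicates 1 and 3 and 5393 without the 3 libraries. In stage II the count was 207 as reported, 623 with no filter, 368 by DESeq2 and 1061 by voom, and in stage IV 72, 323, 156 and 358. The shares of all genes called, beside which the members are read, move with these counts. With few reads, Cd79a and Ms4a1 could show large changes only, and no fold change is given for them.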
